A study of Mus musculus with 4 samples.

Results

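The genes described here encode the plasma and cell-surface proteins of complement, blood clotting and fibrinolysis, and each was followed through the called RNA polymerase II (Pol II) regions of mouse heart, kidney, liver and lung. A fixed list of gene symbols gave 56 members of the 21887 protein-coding genes that the GRCm38.p6 table places on the autosomes, X and Y, the assembly behind mm10, and all 56 were found there. By the textbook source of the protein, 35 members are made chiefly by the liver, 16 chiefly by other cells (endothelium, macrophages, fat cells, the parent cells of platelets, or many cell types) and 5 by the liver and other cells alike. These classes were set with earlier results of these data known. The organs were those of C57BL/6 mice, and the labels name no treatment and no altered gene. Frozen tissue from 2 mice was sheared by PIXUL, a plate-based ultrasound instrument, precipitated with the 4H8 antibody to the Pol II C-terminal domain, and sequenced. Each group is 1 organ with 1 list of regions (n = 1), so values carry no error between replicates and differences between organs were not tested. The sources used here do not give the age and sex of the mice, nor whether a list pools both animals.

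Clotting runs as a chain in which one protease activates the next, from tissue factor or the contact factors to thrombin, which turns fibrinogen into fibrin. Plasmin later dissolves the fibrin. Complement is a second protease chain, started by antibody, by sugars or by spontaneous turnover of C3, and it ends in a pore of C5 to C9 in the target membrane. Hepatocytes secrete most of the soluble proteins of both chains, whereas endothelium and leukocytes carry many of the triggers, receptors and brakes.

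For every member the covered percent is the share of the annotated span, introns included, that lay inside called regions of one list. A member is called covered at 50% or more. Tags per kb are the authors' tag counts, scaled by them to 10000000 tags per list, that fall in the span, divided by its length. Tags were taken as even within a region. A region near an end is one that overlaps the 1 kb on either side of either gene end. Where a list has no region over a gene, polymerase there may still be present below the calling threshold.

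Total tags were 9880184 for heart, 16589890.5 for kidney, 20058183 for liver and 13296938 for lung, and the called regions covered 163, 200, 210 and 161 Mb. The lowest deposited count of a region lay between 5.23 and 6.07 scaled tags. The labelled organs carried their own markers, since 8 of 8 hepatocyte genes were covered in liver, 7 of 8 cardiomyocyte genes in heart (Nppa had no region there), 8 of 8 tubule genes in kidney and 8 of 8 lung epithelial genes in lung. Hepatocyte markers were covered in no other list except Hnf4a in kidney. Some markers of other organs were covered outside their own, namely Sftpc (74.7%), Hopx, Ager and Pln in liver, Hopx, Ager and Cdh16 in heart and Ager in kidney, and their part in the results was not tested. In whole organs, fewer cells of a type and less polymerase per cell cannot be told apart.

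The promoters of 6 members are shown first because the later values turn on their genes. The 3 fibrinogen genes Fga, Fgb and Fgg share the densest liver region of the module, and C3 is the central complement gene. C1ra is made by the liver and other cells yet had no called base outside liver, and F3, which encodes tissue factor, is a gene of other cells whose upstream bases lay inside regions of all 4 lists. Each sequence is the 200 bases before the RefSeq start of the gene in GRCm38.p6, read 5′ to 3′ on the gene's strand, and its position is in that build. Capitals mark matches to the motifs described after the sequences.
Fga, chr3:83025953-83026152, plus strand: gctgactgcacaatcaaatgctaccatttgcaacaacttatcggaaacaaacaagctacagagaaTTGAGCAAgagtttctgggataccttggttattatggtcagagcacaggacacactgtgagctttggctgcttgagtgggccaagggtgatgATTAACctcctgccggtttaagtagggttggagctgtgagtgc
Fgb, chr3:83049864-83050063, minus strand: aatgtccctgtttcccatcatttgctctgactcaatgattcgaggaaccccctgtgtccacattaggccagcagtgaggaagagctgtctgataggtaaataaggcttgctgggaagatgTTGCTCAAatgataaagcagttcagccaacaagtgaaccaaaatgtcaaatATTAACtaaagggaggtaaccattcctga
Fgg, chr3:83007524-83007723, plus strand: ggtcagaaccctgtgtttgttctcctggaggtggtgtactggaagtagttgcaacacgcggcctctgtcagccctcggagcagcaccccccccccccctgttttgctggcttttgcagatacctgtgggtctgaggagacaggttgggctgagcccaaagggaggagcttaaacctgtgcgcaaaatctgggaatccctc
C3, chr17:57228137-57228336, minus strand: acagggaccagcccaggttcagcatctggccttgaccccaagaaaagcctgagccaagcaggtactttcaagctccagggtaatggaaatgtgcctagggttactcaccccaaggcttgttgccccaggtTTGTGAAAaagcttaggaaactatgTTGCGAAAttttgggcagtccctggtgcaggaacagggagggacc
C1ra, chr6:124512421-124512620, plus strand: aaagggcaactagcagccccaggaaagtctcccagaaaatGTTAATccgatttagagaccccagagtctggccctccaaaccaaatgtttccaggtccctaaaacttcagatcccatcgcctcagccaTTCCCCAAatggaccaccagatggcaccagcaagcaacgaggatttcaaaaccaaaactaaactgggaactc
F3, chr3:121723337-121723536, plus strand: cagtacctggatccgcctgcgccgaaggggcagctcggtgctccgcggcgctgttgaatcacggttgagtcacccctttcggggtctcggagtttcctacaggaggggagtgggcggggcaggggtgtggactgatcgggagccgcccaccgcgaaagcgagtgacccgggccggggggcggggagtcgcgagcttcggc

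Upstream bases of Fga, Fgb, Fgg, C3 and C1ra all lay inside a liver region. Those of Fga and Fgg also lay inside a kidney region, and those of C3 inside a lung region. The motifs searched on both strands were the half-site of HNF1 (GTTAAT), the C/EBP site (TTGNGNAA), the HNF4 site (CAAAGTNCA) and the TATA box (TATAAA), the first 3 named for transcription factors known from hepatocytes. Counting back from the base before the start as -1, the HNF1 half-site began at -43 in Fga and at -29 in Fgb, in both on the opposite strand. A C/EBP match began at -135 in Fga, at -80 in Fgb and at -70 and -45 in C3. C1ra held an HNF1 half-site at -160 and a C/EBP match at -72, and the bases shown for Fgg and F3 held none of the 4 motifs. No match overlapped another in these sequences.

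RefSeq promoter windows of 300 bases, 250 before to 50 after the start, were matched for 42 of the 56 members. Among the 28 windows of 27 liver-made members, 9 (32.1%) held the HNF1 half-site, namely those of C4bp, C8a, C8b, F13b, F2, Fga, Fgb, Hc and Proz. The same letters stood in 2 of 13 windows of members made elsewhere (15.4%, Cd55 and Cfp) and in 6.25% of 21263 windows of all genes. The C/EBP letters stood in 7 liver-made windows (25%), in 3 windows of the other-cell members (23.1%) and in 11.99% of all windows. HNF4 letters were found in F9 and Serpind1 (7.14% of liver-made windows, 1.31% of all). The TATA box was in 10.7% of liver-made windows and 12.6% of all. A match describes letters and is not a measured binding site.

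Called liver regions covered nearly all of the liver-made genes of the module. Of the 35 liver-made members, 33 were covered in liver, against 21.9% of all protein-coding genes, and 20 were covered over their whole span. In heart 1 was covered (C8g, background 16.1%), in kidney 5 (C8g, Cfb, Fgg, Masp2 and Serpinf2, background 21.1%) and in lung 2 (C8g and Cfb, background 15.1%). The median covered percent of the liver-made members was 100% in liver, 0% in heart, 2.10% in kidney and 0.924% in lung, beside 2.76%, 2.26%, 5.07% and 3.88% for all genes. Their median density was 41.2 tags per kb in liver and 0, 0.328 and 0.181 in heart, kidney and lung, beside 0.452 in liver for all genes. The liver median was 24.5 tags per kb over the 8 liver-made members whose liver regions reached no other protein-coding gene, and 26.7 with the 50% of regions that had the highest score. Of the liver-made members that shared no region in the list concerned, 7 of 8 were covered in liver, 1 of 27 in kidney (Fgg), 0 of 33 in heart and 0 of 28 in lung. Members with no region at all in a list are among those sharing none, so these shares cannot be compared between lists.

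**Figure D1:**
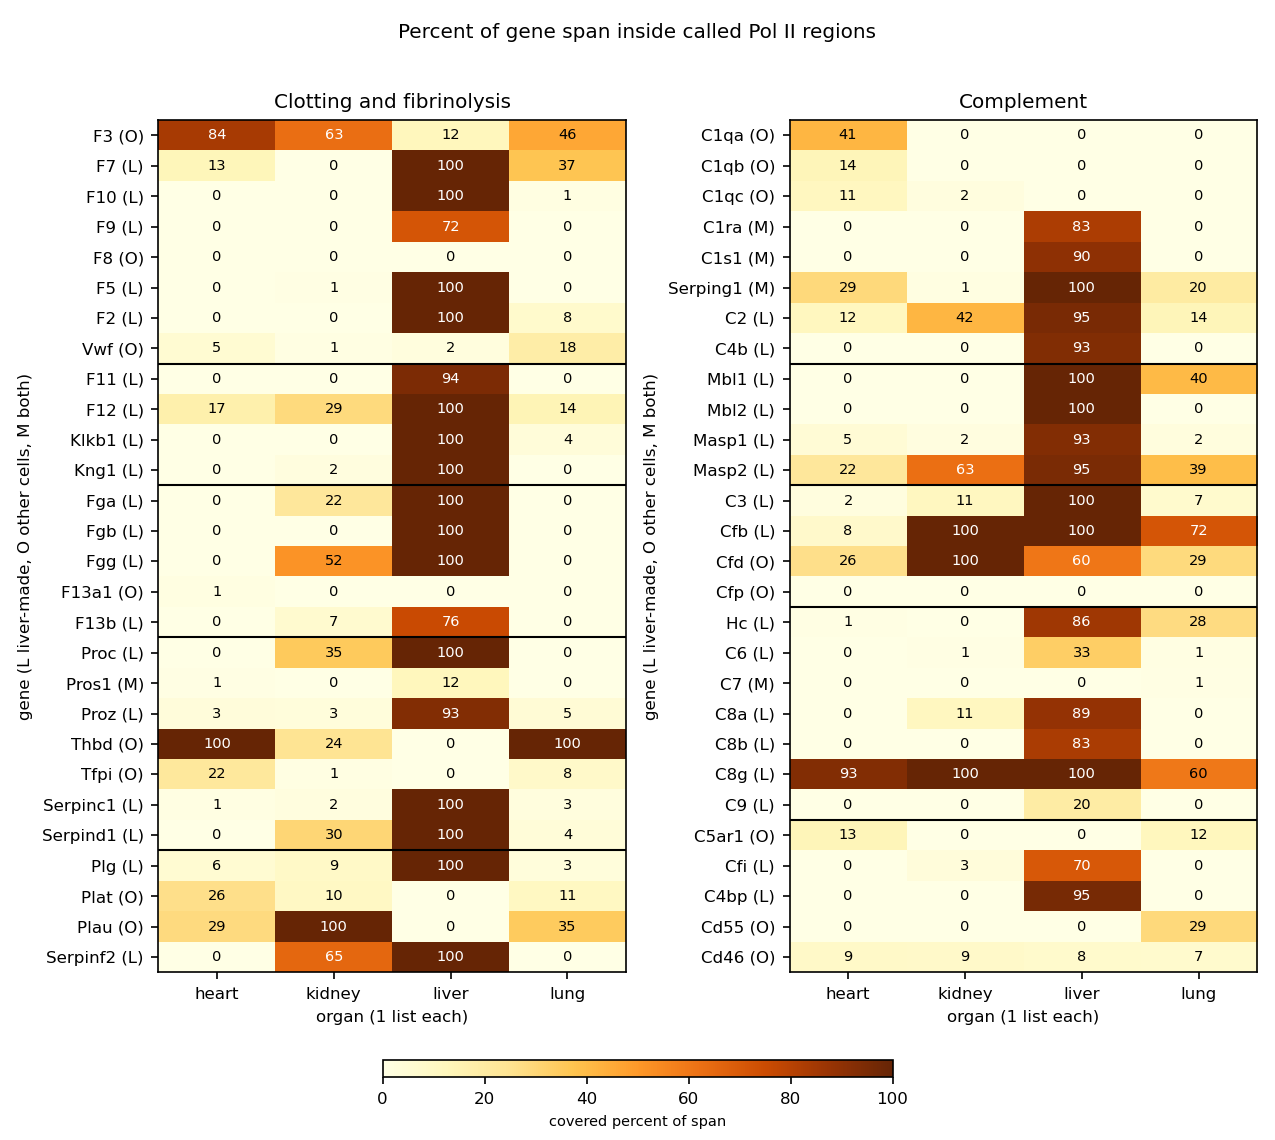
Covered percent of the span of each of the 56 members (rows, grouped by role between the black lines) in the 4 organ lists (columns), 1 list per organ, with letters after the gene for the main source of the protein. The liver column is dark for 33 of 35 liver-made members (L), whereas Thbd, F3, Plau and Cfd among the members of other cells (O) reach their highest values in heart or kidney, Thbd equally in lung.

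The pattern of liver alone, 50% or more in liver and less in each other list, held for 28 of 35 liver-made members and for 5.6% of all genes. The covered percent in liver exceeded every other list by 50 points or more for 28 of 35, against 3.23% of all genes. Density was highest in liver for 35 of 35, against 22.5% of all genes. The threshold fell in a gap, since the liver-made members nearest to it were Cfi (70.4%) and F9 (71.5%) inside and C6 (33.3%) outside. Of the 16 members of other cells, 0 were covered in liver alone, which is near the 5.6% of all genes, and 0 had their highest density in liver.

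**Figure D2:**
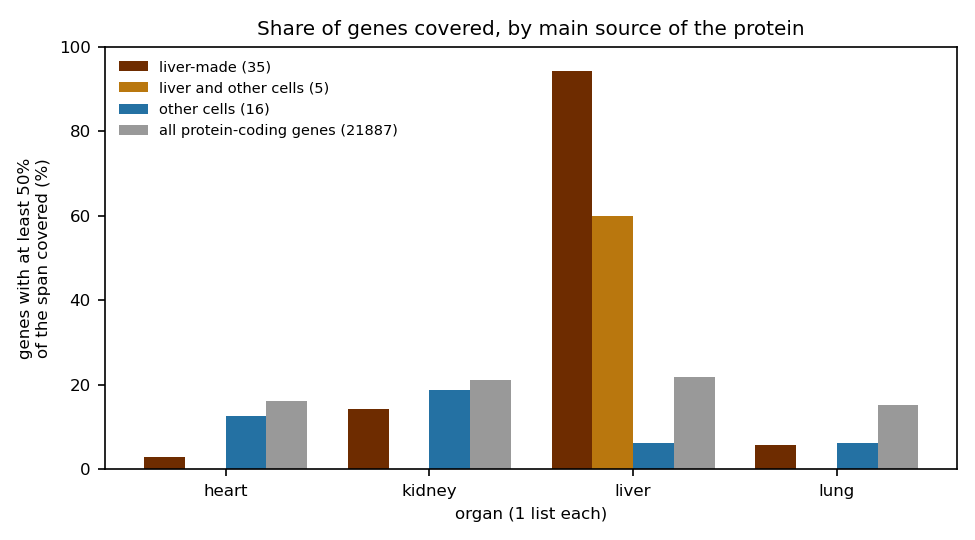
Percent of genes with at least 50% of the span inside called regions (bars, y axis from 0 to 100%) in each organ, for the 35 liver-made members, the 5 made by liver and other cells, the 16 of other cells and all 21887 protein-coding genes. The liver-made bar stands at 94.3% in liver and at 14.3% or less in the other 3 organs.

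Regions near an end were less selective. A region lay near an end of 35 of 35 liver-made members in liver (background 53.3%), 17 in kidney (56.8%), 13 in lung (54.7%) and 7 in heart (51.4%). Near both ends at once the counts in the same order were 33, 8, 7 and 2, against 29.2%, 31.7%, 28.3% and 25.7% of all genes. In kidney 17 of the 35 liver-made members had a region near an end and 5 were covered, beside 56.8% and 21.1% of all genes. Neither share was above that of all genes.

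The trigger and the early clotting proteases separated by source. F3, tissue factor, the membrane trigger of clotting carried by cells around vessels, was covered at 83.8% in heart, 63.3% in kidney, 46.0% in lung and 12.4% in liver, with 21.7, 13.3, 9.73 and 2.59 tags per kb. Its levels were highest in heart and lowest in liver. F7, the protease that binds tissue factor, was covered at 100% in liver, 37.0% in lung, 13.2% in heart and 0% in kidney, with 51.4, 6.49, 2.21 and 0 tags per kb. F10, which converts prothrombin, was covered at 100% in liver and 1.31% in lung and had no called base in heart or kidney. Its liver density was 51.4 tags per kb, against 0.255 in lung. F7 and F10 lay wholly, and Proz over its first part, in the same liver region of 47.1 kb on chromosome 8 (13022532 to 13069629). Their liver densities are thus not independent. Proz encodes protein Z, a cofactor in the inhibition of factor X. Proz was covered at 92.7% in liver and at 3.24%, 2.76% and 4.76% in heart, kidney and lung, with 48.1 tags per kb in liver and 0.798 at most elsewhere.

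F2, prothrombin, was covered at 100% in liver and 7.81% in lung, with 46.0 and 1.45 tags per kb, and had no called base in heart or kidney. F5, the cofactor of factor X, was covered at 100% in liver with 34.2 tags per kb, in a region of 77.3 kb that reaches Selp, and at 0.731% in kidney. F9, the haemophilia B protease, had no region outside liver and was covered there at 71.5% with 14.6 tags per kb. It was the least dense liver-made clotting gene in liver. F8, the haemophilia A cofactor made chiefly by endothelium, and Vwf, its endothelial carrier, were not covered in any list. F8 reached 0.305% in heart at most and had no called base in liver. Vwf stood at 18.4% in lung, 5.48% in heart, 2.45% in liver and 1.12% in kidney, with 3.36, 1.06, 0.483 and 0.194 tags per kb.

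All 4 contact factors, which start clotting on charged surfaces and release bradykinin, were covered in liver and in no other list. Kng1, the kininogen precursor of bradykinin, was covered at 100% in liver with 50.6 tags per kb, at 2.10% in kidney with 0.341, and had no called base in heart or lung. Its liver region of 29.8 kb overlapped no other protein-coding gene and ranked 8 in the liver list by the caller's score, which is the authors' own value. Klkb1, prekallikrein, was covered at 100% in liver with 48.6 tags per kb and at 3.55% in lung with 0.561, and had no called base in heart or kidney. F11, the protease downstream of F12, was covered at 94.2% in liver with 43.6 tags per kb and had no region elsewhere. F11 and Klkb1 shared a liver region of 100.8 kb with Cyp4v3 and Fam149a. F12 was covered fully in liver, at 28.5% in kidney, and at 17.0% and 14.4% in heart and lung, with 26.7, 11.3, 4.58 and 2.08 tags per kb. The kidney region at F12 also reached Slc34a1, the phosphate transporter of the proximal tubule, and Pfn3. The liver regions at F12 likewise overlapped 2 other protein-coding genes.

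The fibrinogen genes carried the highest density of the module. Fga, Fgb and Fgg, which encode the 3 chains of fibrinogen, were each covered at 100% in liver and had no called base in heart or lung. In kidney Fgg was covered at 51.8%, Fga at 22.1% and Fgb at 0%, with 10.2, 3.76 and 0 tags per kb. In liver all 3 had 89.2 tags per kb and stood jointly 4 of 21887 genes. The exact Poisson 95% interval of Fga ran from 84.4 to 94.1, counting error only, with tags taken as even within the region. The shared value follows from their single liver region of 58.0 kb on chromosome 3 (82998894 to 83056845), which holds 5167.2 scaled tags and ends within Plrg1, an RNA splicing gene. By tag count it ranked 42 in the liver list.

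**Figure D3:**
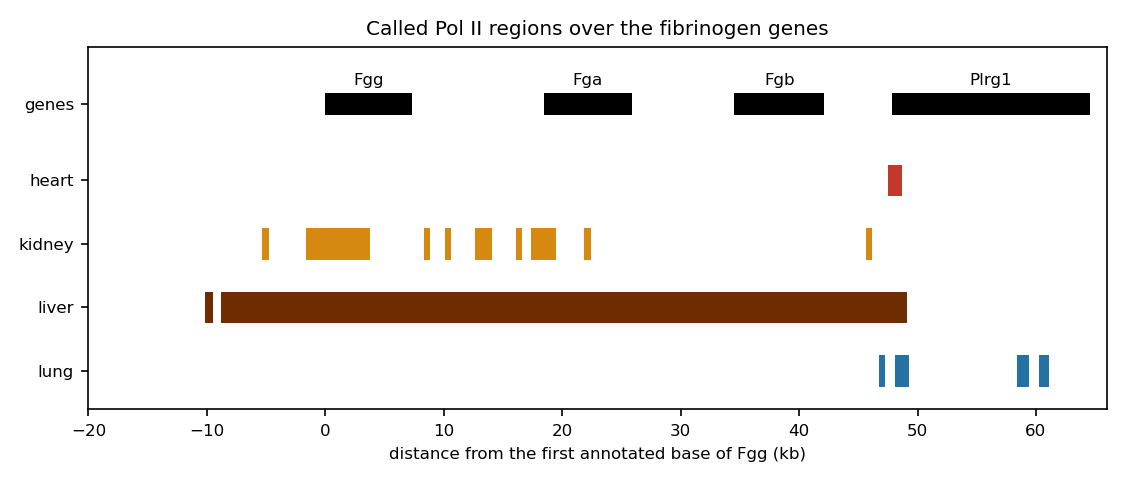
Called regions (coloured bars) of the 4 lists over the fibrinogen genes and Plrg1 (black bars), drawn to scale against the distance in kb from the first annotated base of Fgg. A single liver region spans Fgg, Fga and Fgb, the kidney list holds short separate regions at Fgg and Fga, and the heart and lung lists hold regions at Plrg1 or just before it only.

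The kidney regions at this locus were short and separate. The longest, 5.39 kb with 19.6 tags per kb, covered the first part of Fgg and its upstream bases, and another of 2.07 kb with 19.4 tags per kb lay over the start of Fga. F13b, the carrier subunit of the fibrin-crosslinking factor XIII, was covered at 75.7% in liver and 6.80% in kidney, with 15.3 and 1.32 tags per kb. F13a1, the enzyme subunit made by macrophages and megakaryocytes, was covered at 1.37% in heart and had no called base in the other lists. Of the 5 platelet and megakaryocyte markers, 0 were covered in any list and their summed density ran from 0 in liver to 7.76 tags per kb in lung. The part of platelet or macrophage cell number in the F13a1 value was not tested.

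Among the anticoagulants, the plasma inhibitors lay with liver and the endothelial ones did not. Serpinc1, antithrombin, was covered at 100% in liver and at 1.14%, 2.15% and 2.63% in heart, kidney and lung, with 55.3 tags per kb in liver and 0.242, 0.328 and 0.501 in the others. Serpind1, heparin cofactor II, was covered at 100% in liver, 30.3% in kidney and 4.10% in lung, with 45.1, 5.63 and 0.836 tags per kb. Its kidney regions also overlapped Pi4ka, and its liver regions overlapped 1 other protein-coding gene. Proc, protein C, was covered at 100% in liver and 34.98% in kidney, with 30.1 and 9.11 tags per kb, and had no called base in heart or lung. Pros1, the protein C cofactor made by liver and by other cells, was covered at 12.2% in liver, 0.604% in heart and 0% in kidney and lung.

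Thbd, thrombomodulin, the endothelial receptor through which thrombin activates protein C, was covered at 100% in heart and in lung, at 24.3% in kidney and at 0% in liver. Its densities were 35.9, 25.2, 3.804 and 0 tags per kb in that order. It was the only member with its whole span covered in heart, and the lung region also reached Sstr4. Tfpi, the endothelial inhibitor of tissue factor, was covered at 21.6% in heart, 8.31% in lung, 0.790% in kidney and 0% in liver. Of 8 endothelial markers, 4 were covered in heart and in lung and 1 in kidney and in liver (Egfl7 in both), and the summed densities were 190 tags per kb in heart, 96.9 in lung, 33.3 in kidney and 32.6 in liver. Single markers did not share one order, since Pecam1, Tie1, Kdr and Egfl7 were denser in liver than in kidney, Tek was denser in lung than in heart, and Cdh5 had no called base in kidney or liver, nor Tek and Sox17 in liver. The part of endothelial cell number in the Thbd and Tfpi values was not tested.

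Fibrinolysis divided by organ. Plg, plasminogen, was covered at 100% in liver and at 5.54%, 9.28% and 2.87% in heart, kidney and lung, with 81.1 tags per kb in liver and 1.07, 1.45 and 0.554 in the others. It ranked 14 of 21887 genes in liver, with an interval from 79.2 to 83.1. Serpinf2, the plasmin inhibitor, was covered at 100% in liver and 65.5% in kidney, with 53.0 and 12.3 tags per kb, and had no called base in heart or lung. Its liver region of 95.2 kb ran over 6 other genes, among them Serpinf1 and Prpf8.

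Plau, the urokinase activator of plasminogen, was covered at 100% in kidney, 34.6% in lung, 28.5% in heart and 0% in liver. Its densities were 43.6, 5.70, 5.54 and 0 tags per kb in that order, so kidney stood apart from the other 3 lists. The kidney region of 45.5 kb overlapped no other protein-coding gene and ranked 90 in its list by tag count. Plat, the tissue activator made by endothelium, was covered at 26.3% in heart, 10.6% in lung, 9.79% in kidney and 0% in liver. The 2 activators of plasminogen thus had no called base in liver, where their substrate gene was among the densest.

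**Figure D4:**
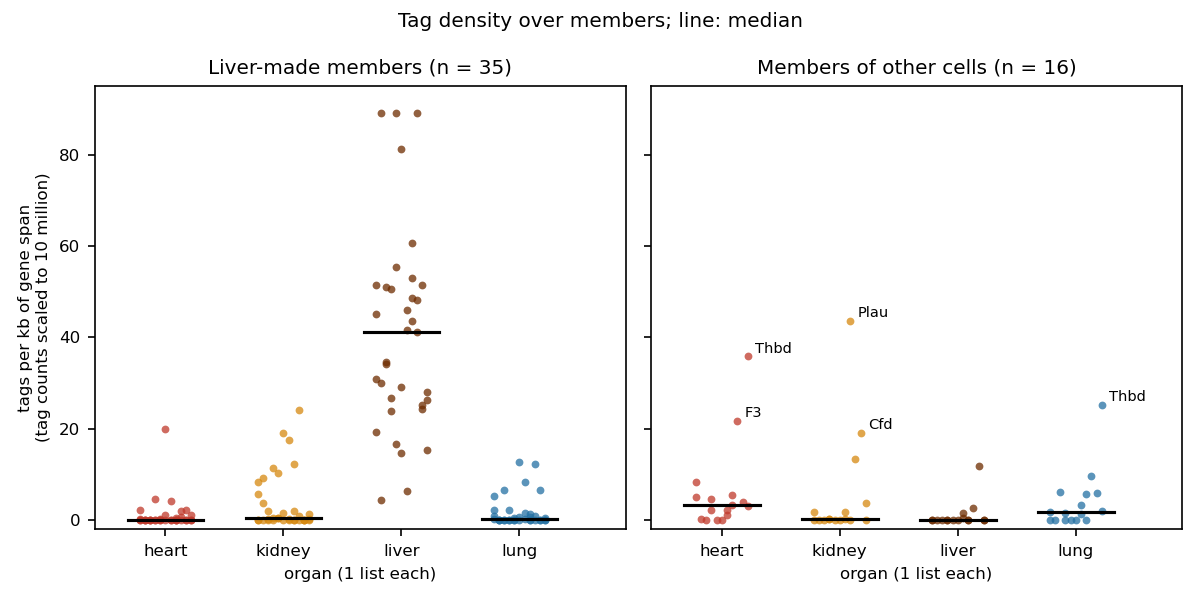
Density in tags per kb of gene span for each member (points, horizontal offsets for legibility) in the 4 lists, with the median as a black line, for the 35 liver-made members (left) and the 16 members of other cells (right, those above 15 labelled). The liver-made points rise to 89.2 in liver with a median of 41.2, and the members of other cells reach their highest value, 43.6 for Plau, in kidney.

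In the classical pathway of complement, the C1q recognition genes were covered in no list and the protease genes of the C1 complex in liver alone. C1qa, C1qb and C1qc, which encode the chains of C1q and are made by macrophages, were covered at 41.4%, 13.6% and 11.1% in heart and had no called base in liver or lung. In kidney C1qc stood at 1.98% and the other two at 0%. The heart regions there were short, the longest being 1.95 kb at C1qc. Of 8 macrophage markers, Cd68 was covered in every list and Lyz2 and Spi1 in lung alone of the 4, Adgre1, Clec4f and Marco had no called base in any list, and the summed density was 56.3 tags per kb in heart, 56.2 in lung, 39.1 in kidney and 35.9 in liver. The part of macrophage number in the C1q values was not tested.

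C1ra and C1s1, the proteases of the C1 complex, had no region outside liver. They were covered there at 82.7% and 90.2%, with 25.3 and 17.7 tags per kb, and shared a region of 10.3 kb. Serping1, the C1 inhibitor, was covered at 100% in liver, 29.1% in heart, 20.1% in lung and 1.45% in kidney, with 34.1, 6.78, 3.54 and 0.270 tags per kb. Its liver region of 68.8 kb also covered bases of Zdhhc5, Clp1 and Ypel4. Of the 5 members of mixed source, these 3 were covered in liver alone, a pattern held by 5.6% of all genes. C4b, the next substrate, was covered at 93.3% in liver with 23.9 tags per kb and had no region elsewhere. C2, its partner in the C3 convertase, was covered at 95.1% in liver, 41.7% in kidney, 13.6% in lung and 11.6% in heart. C4b, C1ra and C1s1 have close copies in the mouse genome (C4a, C1rb and C1s2), as do Mbl1 and Mbl2 (each other), Kng1 (Kng2) and Cd55 (Cd55b), and the handling of tags that match several places is not stated.

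All 4 genes of the lectin pathway, which recognises microbial sugars, were covered in liver. Mbl1, a mannose-binding lectin, was covered at 100% in liver and 40.4% in lung, with 50.9 and 6.45 tags per kb, and had no called base in heart or kidney. Its liver region reached Sftpd, a lung surfactant lectin gene. Mbl2, the second such lectin, had a region in liver alone of the 4 lists, with 100% covered and 25.1 tags per kb. Masp1, a protease bound to these lectins, was covered at 92.7% in liver and 4.88% at most elsewhere. Masp2, which cleaves C4, was covered at 94.9% in liver, 62.5% in kidney, 39.4% in lung and 22.2% in heart. The largest kidney and lung regions at Masp2 also overlapped Tardbp, a widely used RNA-binding protein gene. Its liver regions were shared as well, with 2 other protein-coding genes.

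In the alternative pathway, C3, the protein on which all 3 routes converge, was covered at 100% in liver, 10.97% in kidney, 7.36% in lung and 2.07% in heart. Its densities were 60.7, 1.87, 1.33 and 0.418 tags per kb, and it ranked 86 of 21887 in liver. The liver region of 59.6 kb also reached Tnfsf14, Trip10 and Gpr108. Cfb, factor B, the protease of the alternative convertase, was covered at 100% in liver and kidney, 71.8% in lung and 8.14% in heart, with 41.2, 24.1, 12.3 and 1.97 tags per kb. In liver and kidney it lay in a region shared with C2, Skiv2l and Nelfe, while the main lung region of 3.71 kb overlapped no other protein-coding gene.

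Cfd, adipsin, the protease that activates factor B and is made chiefly by fat cells, was covered wholly in kidney, at 60.2% in liver, and at 28.8% and 26.2% in lung and heart. In that order its densities were 19.04, 11.7, 5.86 and 3.93 tags per kb. The kidney region of 4.10 kb overlapped no other protein-coding gene, and the larger liver region also covered Prtn3 and Elane. Of 5 fat cell markers, 1 was covered in heart and in kidney (Fabp4 in both), 3 in liver (Adipoq, Fabp4 and Cidec) and 0 in lung, with summed densities of 54.0, 12.2, 79.3 and 1.99 tags per kb. The part of fat cells in the Cfd value was not tested. Cfp, properdin, the stabiliser of the convertase made by leukocytes, had no called base in any list.

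The terminal pathway held the 2 liver-made members under 50% in liver, C6 and C9. Hc, which encodes C5, was covered at 85.7% in liver, 27.7% in lung, 0.587% in heart and 0% in kidney, with 19.3, 5.26, 0.113 and 0 tags per kb. C8a and C8b, the chains of C8 that insert into membrane, were covered at 88.6% and 83.2% in liver with 34.5 and 24.3 tags per kb, in part in a region they share with Fyb2. C8a also stood at 11.3% in kidney. C6, which binds C5b, was covered at 33.3% in liver, 0.924% in lung, 0.650% in kidney and 0% in heart, with 6.27, 0.181, 0.133 and 0 tags per kb. C9, which forms the wall of the pore, was covered at 19.5% in liver and 0.271% in kidney, with 4.30 and 0.0458 tags per kb, and had no called base in heart or lung.

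Both genes carried their longest liver region over the start. That of C6 was 17.8 kb long with 21.9 tags per kb, and that of C9 was 14.3 kb with 27.3 tags per kb and reached Dab2, the remaining liver regions of either gene being at most 2.78 kb. C7, made by liver and other cells, had no called base in heart, kidney or liver and 0.658% in lung. C8g, the third C8 chain, was covered at 100% in kidney and liver, 92.7% in heart and 59.8% in lung, with 19.07, 29.05, 19.96 and 12.63 tags per kb. In each list its regions also overlapped Fbxw5, so that these values cannot be assigned to either gene.

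The fluid-phase regulators stood with liver and the membrane proteins did not. Cfi, the protease that cuts C3b and C4b, was covered at 70.4% in liver and 3.35% in kidney, with 16.6 and 0.455 tags per kb. C4bp, its cofactor, was covered at 95.5% in liver with 26.2 tags per kb and had no region elsewhere. C5ar1, the C5a receptor of leukocytes, was covered at 13.4% in heart, 12.1% in lung and 0% in kidney and liver. Cd55, which breaks up convertases on cells, had regions in lung alone of the 4 lists, with 29.2% covered and 6.03 tags per kb. Cd46, a membrane cofactor for Cfi, stood at 8.88%, 8.56%, 7.71% and 7.22% in heart, kidney, liver and lung. Its values were the most even of these 5 genes.

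Over the 16 members of other cells, 2 were covered in heart (F3 and Thbd), 3 in kidney (Cfd, F3 and Plau), 1 in liver (Cfd) and 1 in lung (Thbd). These are shares of 12.5%, 18.8%, 6.25% and 6.25%, none above the background of the same list. Density was highest in heart for 11 of them (19.2% of all genes) and in kidney for Cfd and Plau (18.1%). It was highest in lung for Cd55 and Vwf (12.3%), and Cfp had no region. Poisson intervals of the first and second list overlapped for Thbd, C5ar1, Cd46, C1qc and F8 in heart and for Cfd in kidney. They were apart for F3, Tfpi, Plat, Plau and Vwf, while F13a1, C1qa, C1qb and Cd55 had no called base elsewhere. F8 and F13a1 lay below the heart median of all genes, and the F8 region also reached Fundc2. A region lay near an end of 13 in heart (background 51.4%), 11 in lung (54.7%), 8 in kidney (56.8%) and 3 in liver (Cd46, Cfd and F3, 53.3%). Liver thus stood below its background, while kidney was near its own. Median densities were 3.19 tags per kb in heart, 1.67 in lung, 0.158 in kidney and 0 in liver, beside 0.481, 0.685, 0.907 and 0.452 for all genes. Over the whole module 16 of 56 members were covered in no list, against 66.9% of all genes.

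Where along the genes the polymerase lay could be read for the 27 liver-made members whose strand the RefSeq promoter table gives. A liver region lay within 1 kb of the RefSeq promoter start of 27 of 27, against 51.4% of 17492 genes with such a start. In heart, kidney and lung the counts were 7, 11 and 8, or 25.9%, 40.7% and 29.6%, below the 49.7%, 54.8% and 52.4% of all genes. The profile took the start from the annotated span instead, which lies apart from the promoter start for some members, such as Hc and Masp2. In liver the mean covered percent was 98.0% in the last kb before the start, 100% in the first of 10 equal parts of the gene, 83.5% at its lowest in the seventh part and 89.6% in the last. At 10 kb before the start it was 57.5% and at 10 kb past the end 64.6%. The 3863 other genes covered in liver showed 91.5% in the last kb before the start, 95.2% in the first part and 81.2% in the last, then 48.1% and 50.3% at the 2 outer edges. Those genes were chosen for being covered, whereas the members include C6 and C9, so the sets are given side by side only.

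**Figure D5:**
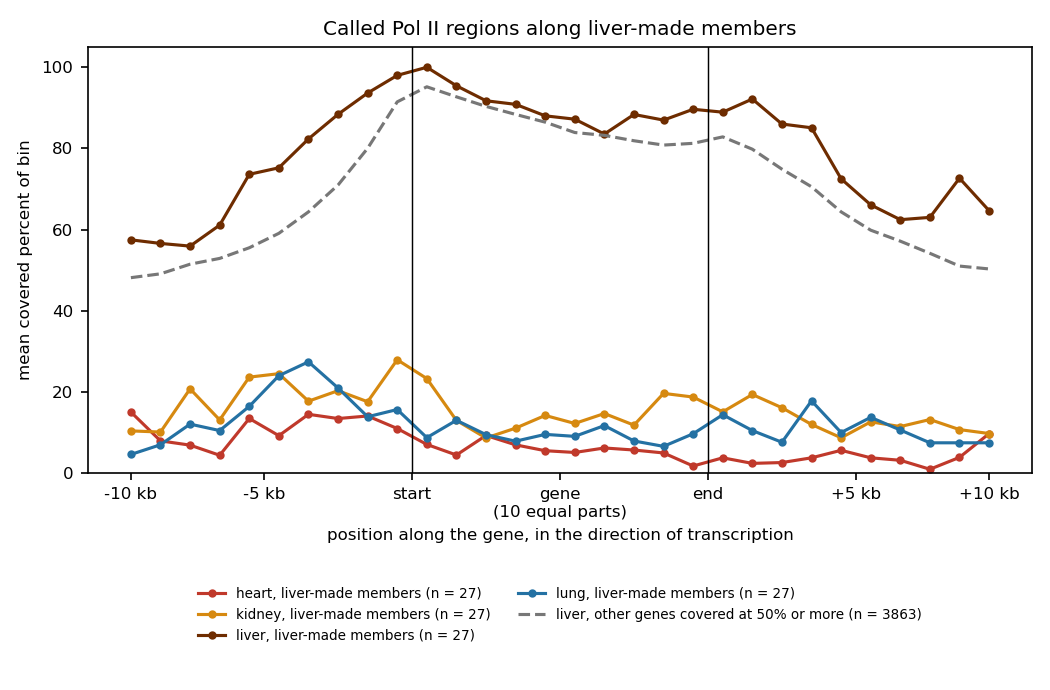
Mean percent of each bin inside called regions along the annotated spans of the 27 liver-made members with a known strand, for 10 bins of 1 kb before the start, 10 equal parts of the gene and 10 bins of 1 kb past the end, by organ (lines), with 3863 other genes covered in liver as a dashed line. The liver line reaches 100% in the first of 10 equal parts of the gene, and the other 3 organs stay below 30% in every bin.

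The liver regions ran past the genes on both sides. All 27 starts and 24 of the 27 ends of the annotated spans lay inside a liver region, and the exceptions at the end were F9, C6 and C9. For the 24 members with both inside, the region reached a median of 8.20 kb before the start and 11.1 kb past the end, and 9 reached farther past the end than before the start. In the 3 of these members whose regions overlapped no other protein-coding gene (F13b, Mbl2 and C4bp) the medians were 5.47 kb before the start and 2.43 kb past the end, and 0 of 3 reached farther past the end. The runs of the 24 members are not independent, since Fga, Fgb and Fgg lie in 1 region and F7 and F10 in another. Such a region is counted once per member, and bases past one member can belong to the next. In liver 27 of the 35 liver-made members shared a region with at least 1 other protein-coding gene. ChIP reads carry no strand, so polymerase in such a region cannot be assigned to one of its genes. Of the 8 liver-made members that shared no liver region, 7 were covered in liver and in no other list, among them Kng1, Proc, F9, Mbl2 and C4bp.

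Of 53 further complement, clotting and fibrinolysis genes, 52 were matched. In liver 21 were covered (40.4%, background 21.9%), while the shares in kidney (8 genes, 15.4%), heart (5, 9.62%) and lung (5, 9.62%) lay below the backgrounds of 21.1%, 16.1% and 15.1%. Covered in 1 list alone were 13 in liver, 1 in kidney, 1 in lung and 0 in heart, against 5.6%, 3.52%, 1.54% and 2.31% of all genes. Regions near an end were found for 33 in liver (63.5%), above the background of 53.3%, and for 25 in kidney (48.1%), 24 in lung (46.2%) and 19 in heart (36.5%), below those of 56.8%, 54.7% and 51.4%. Among the widest gaps between the first and the second organ were those of Hrg, the histidine-rich glycoprotein of plasma, and Vtn, vitronectin, both 100% covered in liver and without a region elsewhere, with 48.3 and 42.3 tags per kb. Wide gaps were also those of Pzp, a broad protease inhibitor, at 100% in liver and 12.3% in lung, and C1rl, a relative of C1ra and its neighbour in one liver region, at 100% in liver and 14.1% in kidney. Lman1, the cargo receptor that carries factors V and VIII out of the endoplasmic reticulum, was covered at 88.9% in liver and 21.1% in kidney. Serpina5, the protein C inhibitor, and Cfhr2 had no region outside liver, where 79.0% and 78.1% were covered. Cd93, an endothelial and myeloid surface protein, shared the pattern of Thbd, with 100% covered in heart and lung and 0% in liver.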

How the data were processed

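Pol II ChIP-seq of heart, kidney, liver and lung was analysed from 1 list of regions per organ. The submitters' processing notes name mm10, Bowtie2 2.2.8 and HOMER 4.8. Per the file headers, findPeaks ran in histone style with 500 bp windows, a Poisson p threshold of 0.001 and a fragment length of 78 bp, and its recorded command names no control. Per the file headers, the signal given for each region is its number of tags after the authors scaled the library to 10000000. The deposited file also gives the caller's score and, as a ratio, a clonal fold change. The ratio was not used for any result.

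From these, covered percent, regions near gene ends and tags per kb of span were computed in Python 3.11.15 with numpy 2.4.6 and pandas 2.3.3 for every protein-coding gene. Gene spans came from a GRCm38.p6 table, and promoter sequences from RefSeq for the same build. Intervals are exact Poisson 95% intervals from scipy 1.17.1 on the unscaled tags that an even spread within regions assigns to a span. They cover counting error only and leave out the uneven spread of tags within a region. The interval code was tested on simulated data with known answers.

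The members, their classes, the other lists and the motifs were chosen with earlier results of these data known. All members may be named. Full values are given for the fibrinogen genes, the 12 densest liver members with a gap of 50 points, the liver-made members under 50% in liver, and the members of other or mixed source covered in any list. Other pathway genes are named for the 8 widest gaps, of which 1 is not reported here, and Cd93 was added after its values were seen. Figures were drawn with matplotlib 3.10.9.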

Additional observations from a re-analysis of the deposited data

How the results depend on the processing

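Of 200 values recomputed for 25 counts and medians, 144 stayed within the margin and 56 moved. The margin was a ratio of 1.5 to the reported value, up or down. A count of 25 liver-made members covered in liver, against the reported 33, thus fell within it. Except where members that share a region were left out, the liver-made members covered in liver ranged from 25 to 36. Those covered in liver alone ranged from 21 to 31. The 36 and 31 counted the 5 members of mixed source as well, and the highest values without that setting were 34 and 29. Leaving out members that share a region with another gene left 8 in liver, of which 7 were covered, all 7 in liver alone, and gave 0 covered in heart, 1 in kidney and 0 in lung, with 9, 8 and 6 near an end in kidney, liver and lung, and 0 other-cell members covered in liver and in lung. Of the 35 members this setting kept 33 for heart, 28 for lung, 27 for kidney and 8 for liver. Members with no region in a list were kept, so the counts under this setting cannot be compared between lists. The medians of liver-made members then became 24.5 tags per kb in liver, 0.0458 in kidney and 0 in lung. With 25% of the span as the threshold, liver-made members covered were 9 in kidney and 6 in lung, and other-cell members 6 in heart and 5 in lung. With 75%, liver-made members were 2 in kidney and 0 in lung, and other-cell members 0 in liver. A window of 2500 bp gave 11 liver-made members near an end in heart. Asking for both ends gave 2 in heart, 8 in kidney and 7 in lung for liver-made members, and 5, 3 and 5 for other-cell members. The upper 50% of each list by score gave 0 liver-made members covered in heart and 1 in lung, 4 near an end in heart, and for other-cell members 1 covered in heart, 0 in liver, 7 near an end in heart and 5 in kidney, with medians of 26.7 tags per kb in liver and 0 in kidney and lung for liver-made members, and 0 in kidney and 0.538 in lung for other-cell members. A minimum of 10 tags gave medians of 0 for liver-made members in lung and other-cell members in kidney. Counting the members of mixed source in each class gave 4 other-cell members covered in liver and 7 near an end there, and medians of 0.198 in kidney and 0.0544 in lung for liver-made members and 0.0326 in kidney for other-cell members. Cutting each list by score to the covered length of the shortest left 28 liver-made members covered in liver and a median of 0 for other-cell members in kidney. Of 2 settings added after seeing the data, the first cut each list by tags per kb to that length. It gave 30 liver-made members covered in liver, 5 other-cell members near an end in kidney and 0 other-cell members covered in liver. Medians in kidney were then 0 for both classes. The second counted only the RefSeq promoter start. It gave 11 liver-made members in kidney and 8 in lung, and 5, 5 and 6 other-cell members in heart, kidney and lung. For the other settings the cause was not tested.

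With 1 list per organ, leaving out replicates does not apply. No paired analysis was possible because each organ has a single list with no replicate number. Depth differed between lists, from 9880184 tags in heart to 20058183 in liver, and lists at equal depth were not made. The annotated span includes introns, and long regions lend their mean density to every gene inside them.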
